A study of Mus musculus with 12 samples.

Results

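The transcripts described here are those of the aminoacyl-tRNA synthetases, the enzymes that join each amino acid to its transfer RNA (tRNA). They were measured in CT26 cells, a mouse colon carcinoma line, on Affymetrix mouse expression arrays. The members were taken from a list of enzyme names and not from measured values. The list held 36 genes, of which 20 encode enzymes of the cytosol and 16 encode enzymes imported into mitochondria. Of these, 32 were measured among 17097 genes in all, namely 17 of the 20 cytosolic enzymes and 15 of the 16 mitochondrial enzymes. Cars, Dars, Tars and Yars2 were not analysed here, because no probe set carried their symbol alone. The study asked what short-term starvation and oxaliplatin do to these tumor cells, and 3 arrays were made for each of 4 groups. STS+OXP cells were kept for 48 hours in starvation medium, which held 1% serum and 0.5 g/L glucose, and received 10 µM oxaliplatin from 24 hours on. OXP cells received oxaliplatin at the same time in full medium, which held 10% serum and 1.0 g/L glucose. STS cells were kept in starvation medium without the drug, and CTR cells in full medium without the drug. The oxaliplatin concentration is that of the sample labels, while figure legends of the study give higher ones. Whether the 3 arrays of each group stem from different cultures is not given in the sources used here, so that p-values measure only the spread between these arrays, which may be technical.

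Every protein made in the cytosol depends on the cytosolic synthetases, which fall into class I and class II according to the fold of their catalytic domain. In mammals, 8 of the genes listed here encode enzymes that are held with the scaffold proteins Aimp1, Aimp2 and Eef1e1 in the multisynthetase complex, while the others work outside it. A separate set of nuclear genes, most with names ending in 2, encodes the enzymes that charge mitochondrial tRNAs for the translation of subunits of the respiratory chain. Gars and Kars encode a cytosolic and a mitochondrial form from the same gene, and they are counted among the cytosolic enzymes here. When amino acids run short, uncharged tRNA activates the kinase GCN2, which phosphorylates eIF2α and raises the translation of the transcription factor ATF4. ATF4 induces genes of amino acid synthesis and uptake, and many cytosolic synthetase genes are among its known targets, whereas the mitochondrial ones are mostly not.

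Values are log2 signals, and a difference of 1 on this scale is a doubling. A gene was called where the adjusted p of limma was under 0.05. The level of control probe sets that match no spiked RNA lay between 3.21 and 3.72 on the 12 arrays, and a gene whose group mean did not exceed it was taken to be at the control level there. Fars2 and Mars2 were at the control level in all 4 groups, Nars2 in STS+OXP cells only, and Sars2 in OXP and CTR cells. OXP array 1 stood apart, because its 3′ Gapdh probe set exceeded the 5′ one by 3.85, against -0.117 to 0.284 on the other 11 arrays, a sign of RNA quality. Of the epithelial markers of the colon, 4 of 11 were above the control level (Epcam, Krt8, Krt20 and Cdx2), and Cdh1, Krt18, Krt19, Cldn3, Cldn4, Vil1 and Cdx1 were not. Mesenchymal markers were above it for 7 of 8 genes, macrophage markers for 3 of 6, lymphocyte markers for 3 of 5 and endothelial markers for 1 of 4. The lymphocyte markers above it (Cd3e, Cd4 and Cd8a) had group means of only 3.54 to 4.42, and the macrophage marker Adgre1 of 3.65 to 3.73. Ptprc, of the lymphocyte list, was at the control level in every group. Vim, of the mesenchymal list, had group means of 12.13 to 12.26. Cdh2, an adhesion protein among the mesenchymal markers, was lower in STS+OXP (-2.05, adjusted p = 3.96e-08) and OXP cells (-1.68, adjusted p = 2.69e-07) than in CTR cells, and the matrix protein Fn1 was higher in all treated groups (0.63, 0.34 and 1.16 for STS+OXP, OXP and STS). Cd68, a macrophage marker, gave 5.22, 3.07 and 4.92 on the OXP arrays, against 2.93 to 2.95 on the CTR arrays, where it was at the control level (at least 0.75 higher, adjusted p = 0.00959). The summed linear signal of the 6 macrophage markers was 51 to 53 on STS+OXP, 48 to 82 on OXP, 49 to 51 on STS and 49 to 55 on CTR arrays, and Itgam, Lyz2 and C1qa were at the control level in every group. The part of these markers in the results was not tested. The arrays measure RNA of the whole culture, so that fewer cells of a kind and less RNA per cell cannot be told apart.

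Oxaliplatin in full medium lowered nearly the whole cytosolic set. In OXP against CTR cells, 16 of the 17 cytosolic enzymes were lower and none was higher, with a median log2 fold change of -1.21. Among all genes, 13.9% were lower and 17.5% higher in this comparison, and the median was -0.01. In 16 of the 17, every OXP array was below every CTR array, as for 18.1% of all genes, and 13 of the 17 fell at least 2-fold, as did 3.09% of all genes. Of the 15 mitochondrial enzymes, 5 were lower and 1 was higher, with a median of -0.06. The plot of values by array shows both sets.

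**Figure D1:**
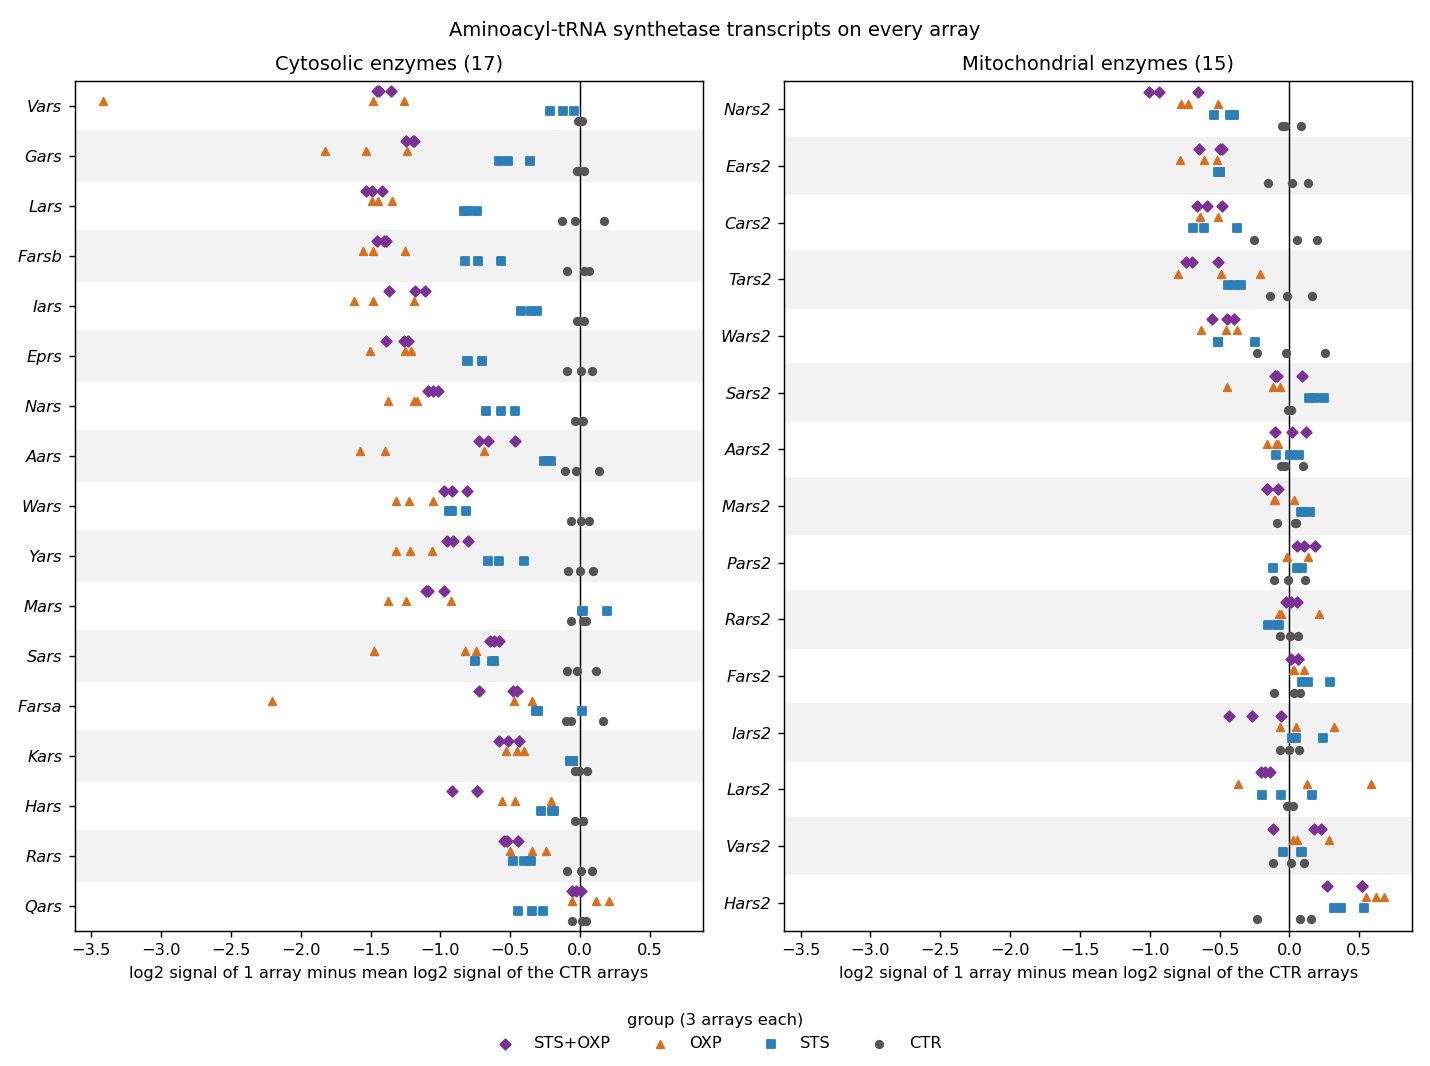
Log2 signal of each array minus the mean of the 3 CTR arrays, for 17 cytosolic enzymes (left) and 15 mitochondrial enzymes (right), ordered by the OXP change. Each point is 1 array. Most cytosolic enzymes lay lowest on the OXP and STS+OXP arrays and between these and CTR on the STS arrays, whereas most mitochondrial enzymes stayed near 0, and Vars and Farsa had 1 OXP array far below the others.

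Within the multisynthetase complex, Lars, Iars, Eprs and Mars fell the most. Lars, the leucyl-tRNA synthetase, which is also a leucine sensor upstream of mTORC1, gave 7.74, 7.70 and 7.81 on the STS+OXP arrays, 7.88, 7.78 and 7.74 on the OXP arrays, 8.49, 8.40 and 8.43 on the STS arrays and 9.40, 9.19 and 9.10 on the CTR arrays. The STS+OXP and OXP arrays overlapped, the STS arrays lay above both, and the CTR arrays lay above all others. Lars was thus 2.69-fold lower in OXP than in CTR cells (log2 fold change -1.43, SE 0.0817, adjusted p = 1.52e-08).

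Eprs, a bifunctional enzyme that charges both glutamate and proline tRNAs, gave 8.48, 8.32 and 8.45 on the STS+OXP arrays, 8.50, 8.46 and 8.21 on the OXP arrays, 8.91, 9.01 and 8.90 on the STS arrays and 9.80, 9.72 and 9.62 on the CTR arrays. It followed the order of Lars, with a log2 fold change of -1.32 in OXP against CTR cells (SE 0.0882, adjusted p = 6.71e-08). Iars, for isoleucine, measured 8.16, 7.90 and 8.09 on the STS+OXP arrays, 7.79, 8.08 and 7.65 on the OXP arrays, 8.96, 8.85 and 8.92 on the STS arrays and 9.25, 9.26 and 9.30 on the CTR arrays. Its STS arrays stood close to the CTR arrays, without overlap, and its OXP change was -1.43 (SE 0.102, adjusted p = 1.29e-07).

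Mars, for methionine, differed from these enzymes in starved cells. It measured 7.25, 7.12 and 7.14 on the STS+OXP arrays, 6.98, 7.30 and 6.85 on the OXP arrays, 8.42, 8.24 and 8.25 on the STS arrays and 8.25, 8.27 and 8.16 on the CTR arrays. The STS and CTR arrays of Mars overlapped, while all OXP and STS+OXP arrays lay below them. Its log2 fold change was -1.18 for OXP against CTR (SE 0.104, adjusted p = 9.22e-07) and 0.08 for STS against CTR (adjusted p = 0.705).

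The remaining enzymes of the complex changed less with the drug. Kars, for lysine, had a narrow spread, with 8.26, 8.13 and 8.21 on the OXP arrays and 8.71, 8.65 and 8.62 on the CTR arrays, a fold change of 1.38 downwards (adjusted p = 8.79e-05). Rars, for arginine, was 1.29-fold lower in OXP cells (log2 fold change -0.37, adjusted p = 0.00286). Qars, for glutamine, was the exception among all 17 cytosolic enzymes. It gave 9.20, 9.23 and 9.17 on the STS+OXP arrays, 9.43, 9.17 and 9.34 on the OXP arrays, 8.96, 8.88 and 8.78 on the STS arrays and 9.27, 9.24 and 9.17 on the CTR arrays. The STS arrays of Qars were the lowest, and the OXP and STS+OXP arrays overlapped with CTR (log2 fold change 0.09 for OXP against CTR, SE 0.0788, adjusted p = 0.491). The scaffolds of the complex fell together with most of its enzymes: Aimp2 by 1.00, Eef1e1 by 0.91 and Aimp1 by 0.27 on the log2 scale in OXP against CTR cells, and all 3 were called.

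Outside the complex, Gars, Farsb, Nars, Wars and Yars were each at least 2.3-fold lower in OXP than in CTR cells. Gars, for glycine, measured 8.81, 8.86 and 8.87 on the STS+OXP arrays, 8.23, 8.82 and 8.53 on the OXP arrays, 9.70, 9.48 and 9.54 on the STS arrays and 10.04, 10.05 and 10.09 on the CTR arrays. No Gars value of a treated group reached the CTR values, and the OXP change was 2.89-fold (log2 fold change -1.53, SE 0.117, adjusted p = 2.44e-07). Nars, for asparagine, gave 8.77, 8.81 and 8.74 on the STS+OXP arrays, 8.66, 8.64 and 8.45 on the OXP arrays, 9.26, 9.36 and 9.15 on the STS arrays and 9.85, 9.84 and 9.79 on the CTR arrays. The 4 groups of Nars did not overlap, with OXP the lowest and CTR the highest.

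Wars, the tryptophanyl-tRNA synthetase, is also an interferon-induced gene. Its values were 5.60, 5.66 and 5.77 on the STS+OXP arrays, 5.35, 5.26 and 5.52 on the OXP arrays, 5.76, 5.64 and 5.66 on the STS arrays and 6.51, 6.58 and 6.64 on the CTR arrays. STS+OXP and STS arrays overlapped, with the OXP arrays below and the CTR arrays above. Yars, for tyrosine, measured 6.05, 5.94 and 5.90 on the STS+OXP arrays, 5.53, 5.79 and 5.63 on the OXP arrays, 6.27, 6.45 and 6.19 on the STS arrays and 6.76, 6.85 and 6.94 on the CTR arrays. Its groups were separate as well, and the log2 fold changes for OXP against CTR were -1.21 for Wars and -1.20 for Yars (adjusted p = 7.75e-08 and 2.3e-07). Hars, for histidine, fell less with the drug alone, by 0.41 on the log2 scale (adjusted p = 0.0025).

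The phenylalanine enzyme is built from an α subunit, encoded by Farsa, and a β subunit, encoded by Farsb. Farsb gave 6.41, 6.42 and 6.36 on the STS+OXP arrays, 6.56, 6.33 and 6.26 on the OXP arrays, 7.25, 7.08 and 6.99 on the STS arrays and 7.88, 7.84 and 7.72 on the CTR arrays. It fell by 1.43 on the log2 scale in OXP against CTR cells (SE 0.0916, adjusted p = 4.53e-08). Farsa measured 6.20, 6.23 and 5.96 on the STS+OXP arrays, 4.48, 6.34 and 6.21 on the OXP arrays, 6.70, 6.38 and 6.37 on the STS arrays and 6.62, 6.85 and 6.58 on the CTR arrays. A large part of the Farsa mean change of -1.01 (adjusted p = 0.0412) lay on OXP array 1, and without this array the change was -0.41 (adjusted p = 0.0173). The Farsa call was lost on leaving out any single array of the other 3 groups (adjusted p of 0.0533 to 0.113), and in 15 of 25 alternative settings in all.

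OXP array 1 was also lower than the mean of the other OXP arrays for Vars by 2.04, Sars by 0.70 and Aars by 0.54. Vars, for valine, gave 6.57, 6.67 and 6.58 on the STS+OXP arrays, 4.61, 6.76 and 6.54 on the OXP arrays, 7.98, 7.81 and 7.90 on the STS arrays and 8.02, 8.01 and 8.04 on the CTR arrays. The other OXP arrays of Vars were close to the STS+OXP arrays. The change of OXP against CTR was -2.05 with all arrays (SE 0.384, adjusted p = 0.000814) and -1.37 without OXP array 1 (adjusted p = 2e-08). Sars, for serine, changed by -1.02 with all arrays and -0.78 without it, and Aars, for alanine, by -1.23 and -1.05, with a call in each case. In all, 4 of the 17 cytosolic enzymes, none of the 15 mitochondrial enzymes and 693 of the 17097 genes were more than 0.5 lower on OXP array 1 than the mean of the other OXP arrays. In the other direction, the mitochondrial enzymes Lars2 (0.70) and Tars2 (0.44) deviated the most among the members on that array. The part of RNA quality in these values was not tested, but the values of Farsa, Vars, Sars and Aars without that array are given above.

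Starvation alone lowered 11 of the 17 cytosolic enzymes and raised none, with a median log2 fold change of -0.41 in STS against CTR cells. Among all genes, 6.74% were lower and 9.75% higher, and the median was -0.03. Wars changed the most, by -0.89 (SE 0.0815, adjusted p = 5.74e-06), followed by Lars with -0.79 (adjusted p = 1.79e-05) and Eprs with -0.78 (adjusted p = 4.1e-05). Farsb, Sars, Nars, Yars, Gars, Rars, Iars and Qars were lower as well, by 0.35 to 0.71. The call of Iars (-0.36, adjusted p = 0.0273) was lost when any 1 of the CTR or STS arrays was left out, with an adjusted p of 0.0577 to 0.0968, and that of Gars (-0.49, adjusted p = 0.011) without STS array 2 (adjusted p = 0.0513). Aars, Farsa, Hars, Kars, Mars and Vars did not pass the test, with log2 fold changes between -0.23 and 0.08, although Hars (-0.22) was called without OXP array 1 (adjusted p = 0.0381). All 3 scaffolds were lower, with -0.49 for Aimp2, -0.48 for Aimp1 and -0.43 for Eef1e1.

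Cells given both treatments had most of these transcripts at levels close to those of cells given the drug alone. In STS+OXP against CTR cells, 15 of the 17 cytosolic enzymes were lower and none was higher, with a median of -0.91, while 14.2% of all genes were lower and 16.4% higher, with a median of 0.00. Lars had the largest fold change, 2.79-fold (log2 fold change -1.48, SE 0.0817, adjusted p = 1.02e-08), and Farsb (-1.42), Vars (-1.42), Eprs (-1.29), Iars (-1.22) and Gars (-1.21) followed. Farsa (-0.55, adjusted p = 0.292) and Qars (-0.03, adjusted p = 0.87) did not pass. Farsa was called without OXP array 1 (adjusted p = 0.000906). The call of Aars (-0.62, adjusted p = 0.0125) was lost without CTR array 3 (adjusted p = 0.0566) or STS+OXP array 3 (adjusted p = 0.0541).

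Oxaliplatin also lowered these transcripts in starved cells. Against STS cells, STS+OXP cells had 11 of the 17 cytosolic enzymes lower and Qars higher, against 11.2% and 10.8% of all genes. Vars (-1.29), Mars (-1.13), Iars (-0.86), Gars (-0.72), Farsb (-0.71) and Lars (-0.69) changed the most. The Vars call (adjusted p = 0.0272) was lost when any 1 STS or STS+OXP array was left out, with an adjusted p of 0.0629 to 0.0838. Without STS array 2 (adjusted p = 0.0736) or STS+OXP array 3 (adjusted p = 0.0598) the call of Yars (-0.34, adjusted p = 0.0137) was lost too. For Wars (-0.01), Sars (0.05) and Rars (-0.09) the values of the starved cells with and without the drug were close, and none was called. Qars rose by 0.33 (SE 0.0788, adjusted p = 0.00786), and its STS+OXP arrays all lay above its STS arrays.

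No enzyme passed the test for starvation medium in cells that received the drug. Between STS+OXP and OXP cells, none of the 32 enzymes was called in limma, where 0.00585% of all genes were lower and 0.00585% higher, that is 1 gene each way. At an unadjusted p under 0.05, 7 of the 17 cytosolic and 1 of the 15 mitochondrial enzymes passed, as did 2160 of the 17097 genes, and with the unequal-variance test named in the methods of the study 3 cytosolic enzymes did (Hars lower, Wars and Yars higher), against 1.56% of all genes lower and 1.45% higher. The values were 0.64 for Vars, 0.60 for Aars, 0.46 for Farsa, 0.40 for Sars and -0.39 for Hars. OXP array 2 mattered here. Without it, Aars (0.87, adjusted p = 0.000172), Gars (0.47), Sars (0.54), Yars (0.38) and Iars (0.33) were higher and Hars (-0.46), Iars2 (-0.44, adjusted p = 0.0416) and Lars2 (-0.53, adjusted p = 0.0233) were lower in STS+OXP cells, and 759 genes in all were lower and 407 higher. For Lars2, the OXP arrays gave 6.66, 5.71 and 6.20, so that its value without array 2 leans on OXP array 1, which stood apart. Without OXP array 1 the Vars value was -0.04 and the Farsa value -0.14.

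The interaction term asks whether the effect of starvation differed in the presence of oxaliplatin, as the STS+OXP minus OXP difference less the STS minus CTR difference. It was called positive for 9 of the 17 cytosolic enzymes and called negative for none, against 2.53% and 5.76% of all genes. The median was 0.74 for the cytosolic enzymes and 0.03 for all genes. Wars had the largest value, with a difference of 0.30 in drug-treated cells and -0.89 in untreated cells (interaction 1.19, SE 0.115, adjusted p = 2.51e-05). Sars (1.07), Yars (0.86), Gars (0.81), Eprs (0.80), Nars (0.76), Lars (0.74), Farsb (0.72) and Iars (0.57) were also called. In Eprs, Lars and Farsb the difference in drug-treated cells was between -0.05 and 0.03. Kars (0.00) and Mars (0.05) had interaction values near 0, Hars had -0.16, and Aars (0.84, adjusted p = 0.0506) was just outside the threshold, but was called without OXP array 2 (1.10, adjusted p = 0.000138). The Iars call (adjusted p = 0.0274) was lost in 7 of the 12 fits that left out 1 array. The Sars value was 0.84 without OXP array 1 (adjusted p = 0.000249).

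**Figure D2:**
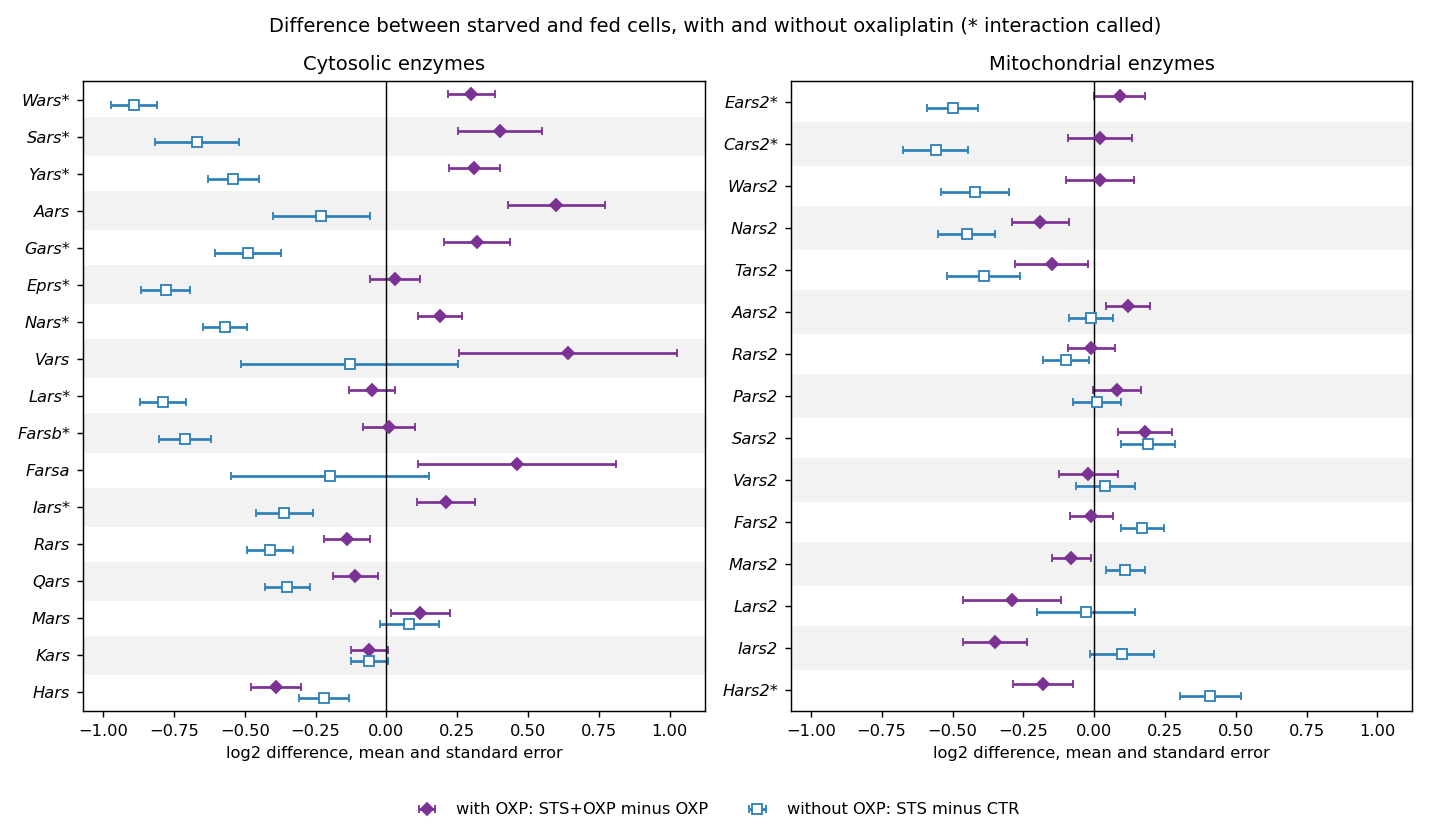
Log2 difference between starved and fed cells, with the standard error of the limma fit, in the presence of oxaliplatin (filled diamonds, STS+OXP minus OXP) and in its absence (open squares, STS minus CTR). Genes run from the highest interaction value at the top, and an asterisk marks those called. For Wars, the points lie at 0.30 and -0.89, and for Kars and Mars they nearly coincide.

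The mitochondrial enzymes split into a few that fell, Hars2 that rose and a majority without a call. Cars2, for cysteine, gave 5.33, 5.26 and 5.44 on the STS+OXP arrays, 5.28, 5.28 and 5.41 on the OXP arrays, 5.55, 5.31 and 5.23 on the STS arrays and 5.98, 6.12 and 5.67 on the CTR arrays. Ears2, for glutamate, measured 4.28, 4.11 and 4.26 on the STS+OXP arrays, 4.24, 3.98 and 4.15 on the OXP arrays, 4.25, 4.26 and 4.26 on the STS arrays and 4.89, 4.61 and 4.78 on the CTR arrays. For both genes all treated arrays lay below all CTR arrays, and the treated groups differed little among each other. The log2 fold changes of Cars2 were -0.58, -0.60 and -0.56 in STS+OXP, OXP and STS against CTR cells, and those of Ears2 were -0.54, -0.63 and -0.50, all called. The Ears2 calls rest on the brightest of 4 probe sets, and with the average of all of them none was called (-0.16, -0.18 and -0.14).

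Nars2, for asparagine, was the mitochondrial enzyme with the largest fall against CTR in both drug-treated groups, though not in STS cells. It gave 3.35, 3.63 and 3.28 on the STS+OXP arrays, 3.77, 3.51 and 3.56 on the OXP arrays, 3.89, 3.86 and 3.74 on the STS arrays and 4.37, 4.25 and 4.23 on the CTR arrays. CTR arrays were above all others, and STS+OXP arrays were at the control level, so that the change against CTR is a bound of at least 0.69 downwards on the log2 scale (adjusted p = 1.26e-05, measured means 3.42 in STS+OXP and 4.28 in CTR cells). The change was -0.67 for OXP against CTR (adjusted p = 0.000121) and -0.45 for STS against CTR (adjusted p = 0.00667). Wars2, for tryptophan, was lower in all 3 treated groups, by 0.46 in STS+OXP, 0.48 in OXP and 0.42 in STS against CTR cells. A dimmer probe set of Wars2 moved less, with -0.39, -0.21 and -0.05 in the same order. Tars2, for threonine, was lower in STS+OXP (-0.65, adjusted p = 0.00126) and OXP cells (-0.50, adjusted p = 0.008), while STS cells had a value of -0.39 (adjusted p = 0.0545) that was called without CTR array 2 or OXP array 1 or 2 (adjusted p of 0.0119 to 0.048). The Wars2 call in STS against CTR cells (adjusted p = 0.0276) was lost without CTR array 1 or 3 or STS array 1 or 2.

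Hars2 and Hars are neighbours on chromosome 18, where Hars2 lies at 36783202 to 36792562 and Hars at 36766528 to 36783205 (GRCm38), so that the annotated ends overlap. Hars2 gave 5.84, 5.59 and 5.84 on the STS+OXP arrays, 6.0, 5.94 and 5.87 on the OXP arrays, 5.86, 5.64 and 5.69 on the STS arrays and 5.09, 5.48 and 5.40 on the CTR arrays. It was the only member called higher than CTR in any treated group, and its treated arrays all lay above the CTR arrays. The log2 fold changes were 0.44 for STS+OXP (adjusted p = 0.00584), 0.61 for OXP (adjusted p = 0.000456) and 0.41 for STS against CTR (adjusted p = 0.018). Hars gave 7.08, 6.90 and 7.08 on the STS+OXP arrays, 7.61, 7.26 and 7.35 on the OXP arrays, 7.62, 7.54 and 7.63 on the STS arrays and 7.84, 7.84 and 7.78 on the CTR arrays. Hars thus moved the other way, with its lowest values in STS+OXP cells. The dimmer probe set of Hars2 gave 0.15, 0.25 and 0.11 for STS+OXP, OXP and STS against CTR, none of them called, and the STS call was lost without CTR array 1 or STS array 1.

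The other mitochondrial enzymes above the control level, Aars2, Iars2, Lars2, Pars2, Rars2 and Vars2, had log2 fold changes between -0.25 and 0.12 against CTR in all treated groups and no call. Without OXP array 2, however, Lars2 was called higher in OXP than in CTR cells (0.36, against 0.12 with all arrays, adjusted p = 0.0455). Of the OXP arrays left, array 1, which stood apart, gave 6.66 and array 3 gave 6.20, against 6.06 to 6.10 on the CTR arrays. Iars2 was called lower in STS+OXP than in CTR cells without STS+OXP array 1 (-0.35, adjusted p = 0.0439) and after cyclic loess (-0.30, adjusted p = 0.044). Sars2, for serine, gave 3.81, 3.88 and 3.77 on the STS arrays and 3.63, 3.62 and 3.64 on the CTR arrays, with no call in any comparison with all arrays. Between STS+OXP and STS cells, Nars2 (-0.41, adjusted p = 0.00852, a bound of at least 0.24 downwards) and Iars2 (-0.36, adjusted p = 0.0379) were lower. The Iars2 call was lost without CTR array 3, any STS array, or STS+OXP array 2 or 3 (adjusted p of 0.0534 to 0.165). The other call in that comparison, Mars2, was at the control level on both sides, and its direction is not used. The mitochondrial interaction calls were Ears2 with 0.59, Cars2 with 0.58 and Hars2 with -0.58.

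For 10 amino acids a cytosolic enzyme could be set against a mitochondrial enzyme that was above the control level in at least 1 group, by comparing the fold change of each and not their levels. The cytosolic change was below the mitochondrial one in all 10 cases for STS+OXP, OXP and STS against CTR, with a median difference of -0.70, -0.92 and -0.39. These comparisons share the CTR arrays. The mitochondrial enzyme was the dimmer one in every pair. Its mean signal ranged from 3.62 for Sars2, against 8.98 for Sars, to 7.28 for Rars2, against 9.14 for Rars. Dim probe sets of cytosolic enzymes also moved less in OXP against CTR cells. They gave -0.52 for Eprs, -0.22 for Farsb and -0.68 for Wars, while the brightest ones gave -1.32, -1.43 and -1.21. The part of signal level in the differences between partners was not tested. Sars2 was at the control level in both OXP and CTR cells, and without the serine pair the count for OXP was 9 of 9, with a median difference of -1.03. In OXP against CTR cells the gap was widest for valine, with -2.05 for Vars and 0.12 for Vars2, followed by leucine, with -1.43 for Lars and 0.12 for Lars2, and isoleucine, with -1.43 for Iars and 0.10 for Iars2. It was among the narrowest for arginine (-0.37 for Rars and 0.03 for Rars2) and asparagine (-1.24 for Nars and -0.67 for Nars2). Against the proline enzyme Pars2 (0.03), Eprs had a gap of -1.36. Eprs and Iars2 lie close to each other on chromosome 1 (GRCm38, 185361417 to 185428360 for Eprs and 185286642 to 185329419 for Iars2), and their changes in OXP against CTR cells were -1.32 and 0.10. Between STS+OXP and STS cells the cytosolic change was lower in 8 of 10 cases, with a median difference of -0.44. The order was the other way between STS+OXP and OXP cells, where the cytosolic change was lower in 3 of 10 cases (median difference 0.26), and for the interaction, where it was lower in 0 of 10 (median difference 0.73).

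The members were also counted by catalytic class within each compartment, and the difference between the classes was not tested. In OXP against CTR cells, 8 of 9 cytosolic class I enzymes were lower, with a median of -1.21, and 8 of 8 cytosolic class II enzymes, with a median of -1.12. Among mitochondrial enzymes the count was 3 of 8 for class I and 2 of 7 for class II. In STS against CTR cells, 7 of 9 cytosolic class I and 4 of 8 cytosolic class II enzymes were lower, and 3 of 8 and 1 of 7 mitochondrial ones. Among all genes, 13.9% were lower in OXP and 6.74% in STS against CTR cells. In a split by the known link to ATF4, the medians lay further apart. All 11 measured cytosolic enzymes that are often listed as ATF4 targets were lower in OXP cells, with a median of -1.24, a highest value of -1.02 and a lowest of -2.05. Of the other 6 cytosolic enzymes (Farsa, Farsb, Hars, Kars, Qars and Rars), 5 were lower, with a median of -0.44. The sets were not cleanly separate, because Farsb (-1.43) lay within the range of the listed enzymes and Farsa (-1.01) next to it. Hars (-0.41), Kars (-0.46), Rars (-0.37) and Qars (0.09) lay outside that range. In STS against CTR cells, Farsb was lower (-0.71), while the listed Aars, Mars and Vars were not called. The list rests on other studies but was chosen with earlier results of these data known, and the difference between the 2 sets was not tested. On the single arrays, the median of the ATF4-listed enzymes relative to CTR was -1.06 to -1.10 on STS+OXP, -1.19 to -1.40 on OXP and -0.47 to -0.66 on STS arrays. For the other 6 it was -0.52 to -0.63 on STS+OXP, -0.32 to -0.52 on OXP and -0.23 to -0.38 on STS arrays.

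Known ATF4 target genes of other function mostly moved in the same direction in OXP cells. Their list, too, was chosen with earlier results of these data known, so that it is not independent of them. Of 30 such genes measured, 24 were lower and 2 higher in OXP against CTR cells, with a median of -1.47, against 13.9% and 17.5% of all genes. The lower ones include the cystine transporter Slc7a11, which was at the control level in all groups. Stbd1, which binds glycogen, fell by 3.52, Trib3, a pseudokinase that inhibits AKT, by 3.19, Shmt2, the mitochondrial serine hydroxymethyltransferase, by 3.03 and Slc7a5, a transporter of large neutral amino acids, by 2.94 on the log2 scale. Atf4 itself, named because the list goes by it, changed by -1.04 (adjusted p = 2.14e-05). In STS against CTR cells 23 of the 30 were lower and none was higher (all genes, 6.74% and 9.75%), led by Stbd1 (-3.86), Trib3 (-2.45), the cystathionine-cleaving enzyme Cth and the stress-induced factor Ddit3 (-1.69). Cth was at the control level in STS cells, so that its change is a bound of at least 1.70 downwards (measured means 3.35 in STS and 5.16 in CTR cells). For STS+OXP against CTR, 21 were lower and 2 higher (all genes, 14.2% and 16.4%), with a median of -1.04. The interaction was called positive for 25 of the 30, against 2.53% of all genes, with a median of 1.01. The largest values were those of Stbd1 with 3.78 and Trib3 with 3.04. Stbd1 had means of 3.65 to 3.99 across the treated groups and 7.51 in CTR cells, beside a control level of 3.21 to 3.72. Cth was at the control level in every treated group. Little room was left for a second fall, so that the interaction of Stbd1 and Cth cannot show whether the effect of starvation changed. The part of this limit in the other values was not tested. The OXP arrays were uneven for this list, with medians relative to CTR of -1.82, -0.99 and -1.69, and OXP array 2 lay at the level of the STS+OXP arrays (-0.97 to -1.08).

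**Figure D3:**
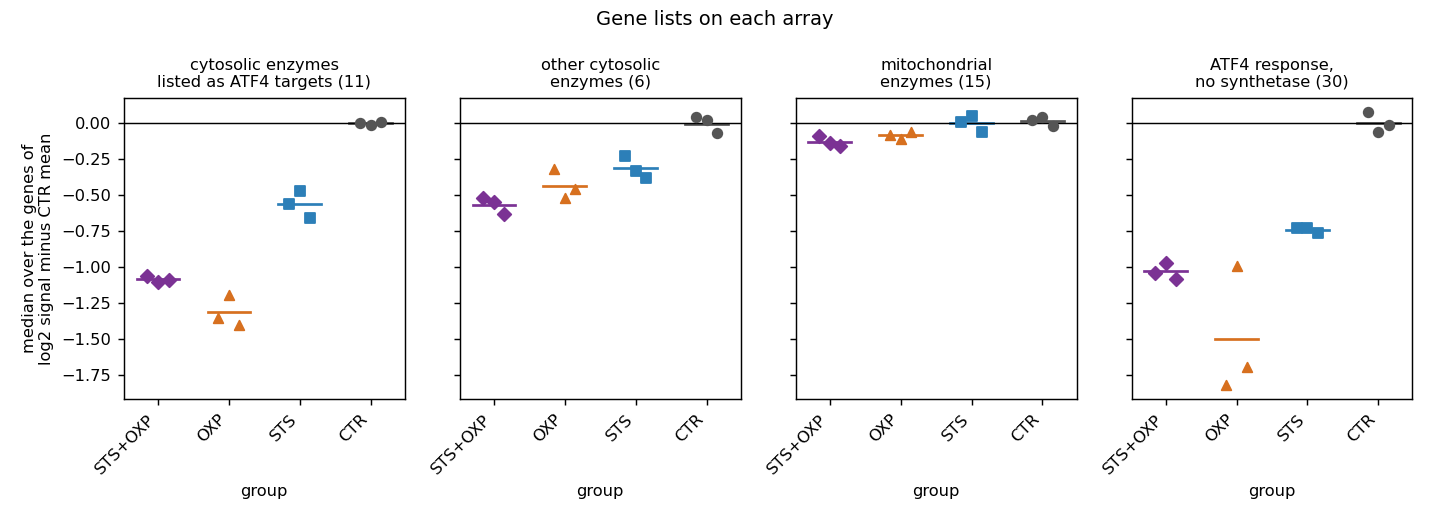
Median over the genes of a list of the log2 signal minus the CTR mean, 1 point per array, with the mean of the 3 arrays as a line. The 11 cytosolic enzymes listed as ATF4 targets lay between -1.06 and -1.40 on all drug-treated arrays, the 15 mitochondrial enzymes stayed between -0.16 and 0.05 in every treated group, and 1 OXP array of the ATF4 response lay at -0.99.

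Since these genes moved together, their promoters were searched for TGATGNAA, a core shared by binding sites of ATF4 with C/EBP proteins. Both strands were read from 250 bases before to 50 bases after the start given for each promoter (RefSeq, GRCm38.p6). Promoters were given for 11 of the 17 measured cytosolic and 13 of the 15 measured mitochondrial enzymes. The motif was found in 4 of the 11 cytosolic promoters (36.4%), in none of the 13 mitochondrial promoters, in 8 of 26 promoters of the ATF4 target list (30.8%) and in 4.51% of 27025 promoters of all genes. The motif was not confined to genes that fell. On the target list it was also found in Vldlr, which was higher in OXP than in CTR cells (means of 8.77 and 7.54). Slc7a11, at the control level in all groups, had it too. The match nearest the promoter's start is shown for each of the 4 enzymes, because these place the motif next to that start in genes that fell. That of Asns, the asparagine synthetase gene, is shown as well, and its expression changed by -1.98 in OXP against CTR cells. They read along the strand of the gene, with the motif, or its reverse complement, in capitals.
Aars, chr8:111033841-111033868: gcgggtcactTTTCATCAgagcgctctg
Gars, chr6:55037961-55037988: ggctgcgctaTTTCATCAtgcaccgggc
Iars, chr13:49682127-49682154: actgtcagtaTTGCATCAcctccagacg
Yars, chr4:129189896-129189923: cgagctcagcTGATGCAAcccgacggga
Asns, chr6:7693215-7693242: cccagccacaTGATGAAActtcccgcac
Counted from the promoter's start as 1, with negative positions before it, the leftmost base of the motif stood at 10 for Aars, -30 for Gars, 8 for Iars, 4 for Yars and -23 for Asns. For Aars and Yars the promoter's start lay downstream of the annotated start of the gene (111027778 and 129189734), so that their motifs lie inside the annotated gene. The Iars motif lies inside its annotated gene as well, which starts at 49682130. Aars, Gars, Iars and Yars lie on the plus strand, and Asns lies on the minus strand. The motif CACGTG, the E-box bound by MYC and related factors, was found in 3 of the 11 cytosolic promoters (Aars, Farsb and Iars), in 1 of the 13 mitochondrial promoters (Ears2) and in 8.09% of all promoters. A match is a string of letters and not a measured binding site. Binding was not measured in these cells.

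Other parts of the tRNA and elongation machinery were counted in the same way, beside 13.9% of all genes lower and 17.5% higher in OXP against CTR cells. Among 17 genes of tRNA maturation and export, OXP cells had 10 lower (58.8%) and 0 higher calls against CTR cells, with a median of -0.44. Xpot, which exports tRNA from the nucleus, fell by 1.67, the RNase P subunits Rpp30 and Pop1 by 1.15 and 0.82, and Tsen15, of the tRNA splicing endonuclease, by 0.67. Of 11 cytosolic elongation and termination factors, 6 were lower (54.5%) and none higher, with a median of -0.33, led by Eif5a (-0.85), the termination factor Gspt1 (-0.79), the ribosome recycling factor Abce1 (-0.69) and Eef1d (-0.67). Of 11 mitochondrial translation factors, 3 were lower (27.3%) and 2 higher (18.2%, close to the share of all genes), with a median of -0.03. Among them Mtfmt, which formylates the initiator tRNA, rose by 0.70, and Tsfm, Gfm1 and Gatc fell by 0.49, 0.41 and 0.40. Among the 6 measured kinases of eIF2 and partners of GCN2, Impact, an inhibitor of GCN2, rose by 0.99, Eif2ak2 by 0.58 and Eif2ak1 by 0.38 in OXP cells. In STS against CTR cells, Eif2ak2 rose by 0.78, Eif2ak4, which encodes GCN2, by 0.53 and Impact by 0.32, while Eif2ak3 fell by 0.49. Of 3 proofreading factors, Aarsd1, an alanyl-tRNA editing protein, fell by 0.77 and Prorsd1 rose by 0.40 in OXP cells.

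Several members have more than 1 probe set of a single symbol, and most of these gave the same direction. In OXP against CTR cells, the probe sets other than the chosen ones gave -1.82 for Aars, -1.63 and -1.72 for Eprs, -1.50 for Farsb, -1.52 for Iars, -1.61 for Nars, -0.96 for Sars and -1.94 for Wars. The dim ones moved less, with -0.52 for Eprs, -0.22 for Farsb and -0.68 for Wars. The 4 Qars probe sets were split, with 0.09, 0.20, -0.19 and 0.14, and the other probe sets of Farsa gave -0.17 and -0.29.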

How the data were processed

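CT26 cells of 4 groups were profiled on 12 arrays, 3 per group, assigned from the sample labels. The authors labelled RNA with a 3′ kit, and the deposited values are log2 signals from RMA (R 3.02, per the submitters' processing notes). This method gives all arrays the same distribution of values, so that a change of total RNA per cell is not seen. Of 45141 probe sets, 28898 had a single gene symbol, 551 several and 15588 none, and 104 were controls. Each gene was read from its single-symbol probe set with the highest mean, which left 17097 genes, with no further normalization or filter.

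The 4 group means were fitted with limma 3.58.1 (R 4.3.3) on all 12 arrays, and the 6 comparisons were tested two-sided, with Benjamini-Hochberg adjustment over 17097 genes. The script was tested on simulated data. Arrays give signals and not read counts, and the number of arrays limits precision. Lists were described by counts and medians without a test of the list. Every measured synthetase and scaffold was named, and of other lists up to 4 called members with the largest change. The members and lists were chosen with earlier results of these data known. Alternatives covered scaling, choice of probe set, filter, test, fold threshold, replicate block and each array left out. Same-numbered arrays of different groups were compared for shared deviations.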

Additional observations from a re-analysis of the deposited data

Results flagged for a closer look

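For 12 enzymes the effect of starvation with oxaliplatin differed from that without it by the interaction term of limma. Among the cytosolic enzymes these were Wars with 1.19, Sars with 1.07, Yars with 0.86, Gars with 0.81, Eprs with 0.80, Nars with 0.76, Lars with 0.74, Farsb with 0.72 and Iars with 0.57 on the log2 scale. All 9 were lower in STS than in CTR cells. In the mitochondrial set, Ears2 had 0.59, Cars2 0.58 and Hars2 -0.58. Hars2 was higher in STS than in CTR cells, by 0.41. The Cars2 call (adjusted p = 0.0428) was lost in 9 of the 12 fits that left out 1 array, and the Hars2 call (adjusted p = 0.0299) in 4 of them. The Ears2 call was lost with the average of all probe sets (0.16, adjusted p = 0.372).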

How the results depend on the processing

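Of 86 called values of the 32 enzymes, 14 passed under all 25 alternative settings that could be computed and 72 failed under at least 1, mostly under the demand for a 2-fold change (61) and the adjusted unequal-variance test of the methods (36). With a 2-fold change demanded, the number of cytosolic enzymes lower was 0 for STS, 8 for STS+OXP and 2 for STS+OXP against STS, 2 had a positive interaction, and the mitochondrial counts were 0 in STS, OXP and STS+OXP against CTR and in STS+OXP against STS. With the methods' test after adjustment, 4 cytosolic and 1 mitochondrial enzyme were lower in STS, 7 and 0 in OXP against CTR, and 7 and 1 in STS+OXP against STS. Without adjustment it gave 3 lower mitochondrial enzymes in OXP cells. The average of all probe sets gave 2 lower mitochondrial enzymes in STS cells and 1 in STS+OXP against STS. This last count was 1 among genes above the median signal and 5 with array weights, with only the arrays compared, or without OXP arrays 1 and 2. Of single values, 1 changed sign: Qars in STS against CTR cells gave 0.03 with specific probe sets, a dim one, against -0.35.

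With 1 array left out, the cytosolic counts lower were 9 to 12 in STS, 15 to 16 in OXP and 14 to 16 in STS+OXP against CTR, and 9 to 12 in STS+OXP against STS. The mitochondrial counts were 3 to 5, 5 to 6, 5 to 6 and 1 to 4. Positive interaction calls of cytosolic enzymes ranged from 8 to 10. In STS+OXP against OXP cells, the counts ranged from 0 to 5 higher and 0 to 1 lower for cytosolic and 0 to 2 lower for mitochondrial enzymes, with OXP array 2 deciding the upper end. Whether the replicate numbers pair the arrays is not given in the sources used here. The deviations of same-numbered arrays correlated between -0.199 and 0.102, and 1 of 18 was over 0.1. With 3 arrays per group, such values cannot exclude a shared culture or day. With the replicate block, 83 of the 86 calls passed, with 8 positive cytosolic interactions, and the interactions of Iars (adjusted p = 0.0516), Cars2 (0.0665) and Hars2 (0.0574) did not.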
